A study of Mus musculus with 4 samples.

Results

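Hearts of mice that had run voluntarily for 16 weeks were set beside hearts of sedentary mice, with no infarct on either side, one library each. After filtering, these 2 of the study's 4 libraries held 10946 of its 18781 nuclei, 5114 from the sedentary and 5832 from the running library. Both pools came from wild-type C57BL/6J mice, male and female, that were 8 weeks old when the exercise period began. The running mice had access to wheels for 16 weeks and the controls did not exercise. Each pool joined the ventricles of 2 hearts, which were frozen, minced and homogenised, and nuclei positive for the DNA dye Hoechst were sorted and loaded in a single well. The other 2 libraries, each of 4 pooled hearts taken 2 weeks after infarct surgery, are used only as a second reading of the same contrast. With 1 library per group there is no replicate, so no test was run, and running and the particular animals behind each pool cannot be told apart.

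Endurance exercise is known to enlarge the heart without fibrosis, with a shift of cardiomyocytes toward fatty acid use and with growth signalling through the insulin-like growth factor and neuregulin receptors. The ventricle also holds fibroblasts, vascular endothelium, the endocardium that lines its chambers, lymphatic endothelium, pericytes and smooth muscle around vessels, a mesothelial sheet over its surface (the epicardium), resident macrophages and a few lymphocytes. Many transcripts of these cells follow the time of day through a feedback loop in which the factors encoded by Arntl (also named Bmal1), Clock and Npas2 drive their own repressors and output genes such as Dbp, Nr1d1 and Nr1d2. Others, such as heat shock and immediate early genes, respond within minutes to hours to heat, handling, hormones or tissue collection.

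The sedentary and running libraries held 32899707 and 37533722 unique molecular identifiers (UMIs, one per captured RNA molecule), with medians of 3490.5 and 3742 per kept nucleus. Mitochondrially encoded transcripts made up a median of 6.21% of UMIs in the sedentary and 10.2% in the running library, and the share was higher in the running library in each of the 9 larger classes. At least 2 UMIs of 4 Y-linked genes were found in 33.0% of sedentary and 35.3% of running nuclei, called Y-positive here, and none in 51.6% and 49.2%, called Y-negative. Y-positive nuclei are mostly expected from male hearts, though free RNA and doublets can add Y-linked UMIs to others, and Y-negative nuclei can include shallow male ones. No background share of Y-linked UMIs was measured, and within a pool sex and heart cannot be told apart. The libraries shared 12 barcodes. Clusters that took no class name held 23.1% of sedentary and 26.6% of running nuclei, mostly shallow ones. Levels are given per class as UMIs of a gene per 1000000 UMIs without mitochondrially encoded genes (CPM). Square brackets hold 95% intervals for the error of counting alone, which leaves out differences between animals. A gene was measured in a class with at least 100 UMIs over both libraries, and was called higher or lower from a 1.5-fold difference on.

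Cardiomyocyte-like nuclei, 775 in the sedentary and 650 in the running library, were 15.2% [14.2 to 16.2] and 11.1% [10.3 to 12.0] of kept nuclei. The ratio of shares, running to sedentary, was 0.735 [0.667 to 0.811]. These counts leave out 2 unnamed clusters whose highest marker score was also that of cardiomyocytes. The larger, of low depth, held 535 sedentary and 743 running nuclei (10.5% and 12.7% of kept nuclei), the opposite order. The other, with a high doublet score, held 201 and 146 nuclei. The ratio thus covers only the nuclei that took the class name. Fibroblast-like nuclei were the most numerous class on both sides, at 27.9% and 26.1%. Vascular endothelial-like nuclei were 13.5% and 12.9%, with an interval of the ratio that spans even (0.867 to 1.05). The other lining cells of the heart stood at or above even. Endocardial-like nuclei were 8.13% and 8.97%, a ratio of 1.10 [0.975 to 1.25]. Lymphatic endothelial-like nuclei numbered 190 and 273, or 3.72% and 4.68%, a ratio of 1.26 [1.05 to 1.51]. Pericyte-like (101 and 103 nuclei), smooth muscle-like (42 and 47) and mesothelial-like nuclei (106 and 112) kept nearly equal shares, with ratios of 0.894, 0.981 and 0.927 and intervals that span even. Macrophage-like nuclei were 3.05% and 3.67%, a ratio of 1.20 [0.982 to 1.47]. A share of nuclei says nothing of the number of cells in the heart, since recovery of nuclei differs between cell types and large cells can be lost. Clustering each library alone, or keeping only barcodes of at most 5% mitochondrial UMIs, moved several of these ratios. The vascular endothelial-like ratio then became 1.26 and 2.23. At that mitochondrial limit the pericyte-like, smooth muscle-like and mesothelial-like ratios were 1.52, 2.29 and 0.626, and the mesothelial-like ratio was 0.556 among Y-positive and 1.37 among Y-negative nuclei.

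**Figure D1:**
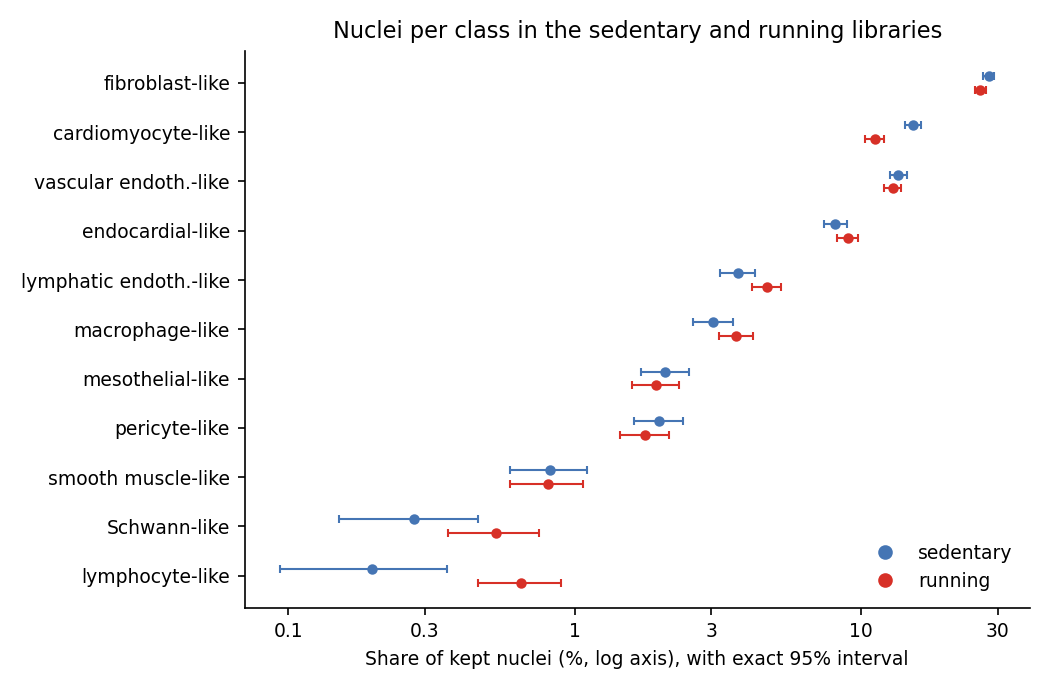
Share of kept nuclei in each named class (percent, log axis), sedentary in blue and running in red, with exact 95% binomial intervals. The running share is lower for cardiomyocyte-like and higher for lymphocyte-like nuclei with intervals that do not overlap, while those of lymphatic endothelial-like, pericyte-like, smooth muscle-like and mesothelial-like nuclei overlap.

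Lymphocyte-like nuclei, in clusters led by B and T cell genes, had the highest ratio of shares among classes with at least 10 nuclei in each library. Only 10 such nuclei were found in the sedentary library and 38 in the running one, 0.196% [0.0938 to 0.359] and 0.652% [0.461 to 0.893], a ratio of 3.33 [1.66 to 6.68]. The cluster that carries B cell markers held 1 sedentary and 22 running nuclei, while the T cell cluster held 9 and 16. The B cell list summed to 105 UMIs over the 10 sedentary and 578 over the 38 running nuclei, and the T cell list to 246 and 356 UMIs. The 10 sedentary nuclei were far deeper, with a median of 9262 UMIs against 2597.5 in the running library. The 12 lymphocyte markers summed to 3200 CPM in the sedentary and 4873 CPM in the running nuclei. Fibroblast markers stood at 4431 and 4184 CPM there, so these nuclei also held transcripts of other cell types and may differ in makeup. Over the processing alternatives in which the class formed, the ratio ran from 1.99 to 5.45, always above even. After infarct the class was larger in both libraries, at 2.37% and 4.05%. Schwann-like nuclei, the glia of cardiac nerves, numbered 14 and 31, a ratio of 1.94 [1.03 to 3.65] that ran from 1.03 to 7.27 over the alternatives. The 10 Schwann cell markers summed to 3600 CPM in the sedentary and 10279 CPM in the running nuclei, beside 5530 and 5721 CPM for fibroblast markers, so the 2 sets of nuclei may differ in makeup. Dendritic-like nuclei numbered 2 and 9 and erythroid-like nuclei 2 and 4, too few to compare.

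Across classes, few genes stood apart in one direction everywhere. Of 4498 genes measured in at least 5 classes, 7 (0.156%) were higher in the running library in every class where they were measured and 9 (0.2%) were lower. The 9 lower genes were Hsph1, Hspb1, Stip1, Hsp90aa1, Hspd1, Dnaja1, P4ha1, St13 and Hspa4l. All but P4ha1, which encodes a prolyl hydroxylase needed for collagen folding, encode heat shock proteins or their co-chaperones. The 7 higher genes were Hba-a1, Hbb-bs, Grik1, Xlr5a, Lrp1b, Cntnap2 and Gvin2.

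Heat shock genes encode chaperones that hold or refold unfolded proteins, and their transcription is driven by heat shock factor 1 within minutes of heat or other protein stress. Of 20 genes on the heat shock list, those measured made 106 pairs of gene and class, of which 86 were lower and 0 higher in the running library. The background over all measured genes ranged from 1.47% lower in fibroblast-like to 4.82% lower in mesothelial-like nuclei. By class, 12 of 18 measured members were lower in cardiomyocyte-like, 17 of 19 in fibroblast-like, 17 of 19 in vascular endothelial-like, 12 of 17 in endocardial-like and 10 of 13 in lymphatic endothelial-like nuclei. The smaller classes followed, with 3 of 3 in pericyte-like, 2 of 2 in smooth muscle-like, 7 of 7 in mesothelial-like and 6 of 8 in macrophage-like nuclei. The median log2 ratio of the list lay between -1.19 and -0.70 in the 9 classes, beside -0.02 to 0.01 for all measured genes.

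The inducible members of the Hsp70 family showed the widest gap. Hspa1a (ENSMUSG00000091971) stood at 108 CPM in sedentary and 3.33 CPM in running vascular endothelial-like nuclei, from 200 and 7 UMIs, a log2 ratio of -5.01. Its near-identical copy Hspa1b stood at 81.2 and 5.71 CPM there, and reads that both genes share may be split between them in either direction. Hsph1, which encodes a nucleotide exchange factor of that family, was at 214 CPM in sedentary and 36.7 CPM in running vascular endothelial-like nuclei, against 169 and 52.2 for fibroblast-like and 71.4 and 18.3 for cardiomyocyte-like nuclei. Hsp90aa1, the inducible Hsp90 chaperone, was at 231 and 77.1 CPM in vascular endothelial-like nuclei. Of the constitutive members, Hspa8 was at 358 and 178 CPM in vascular endothelial-like and at 202 and 174 CPM in cardiomyocyte-like nuclei, and Hsp90ab1 at 530 and 279 and at 202 and 157 CPM. Cryab, the small chaperone abundant in muscle, was at 318 and 256 CPM in cardiomyocyte-like nuclei.

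The sedentary library stood apart from the other 3. Summed over the list in vascular endothelial-like nuclei, the level was 3488 CPM in the sedentary, 1541 in the running, 1210 in the sedentary infarct and 1121 in the running infarct library. In fibroblast-like nuclei the sums were 2372, 1226, 901 and 906 CPM, and in smooth muscle-like nuclei 4059, 2126, 1146 and 1183. In all 9 classes the sedentary library was the highest of the 4, and in the infarct pair the list's median log2 ratio was between -0.22 and 0.18. The list's median was further below 0 among Y-positive than among Y-negative nuclei in 8 of the 9 classes. The medians ran from -2.07 to -1.06 and from -1.11 to 0.02, and the exception was mesothelial-like nuclei, with -1.06 and -1.11. In cardiomyocyte-like nuclei Hsph1 was at 122 and 11.2 CPM in Y-positive nuclei and at 27.2 and 29.3 in Y-negative ones. Tissue handling was not recorded in the labels, and its part in these values was not tested.

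**Figure D2:**
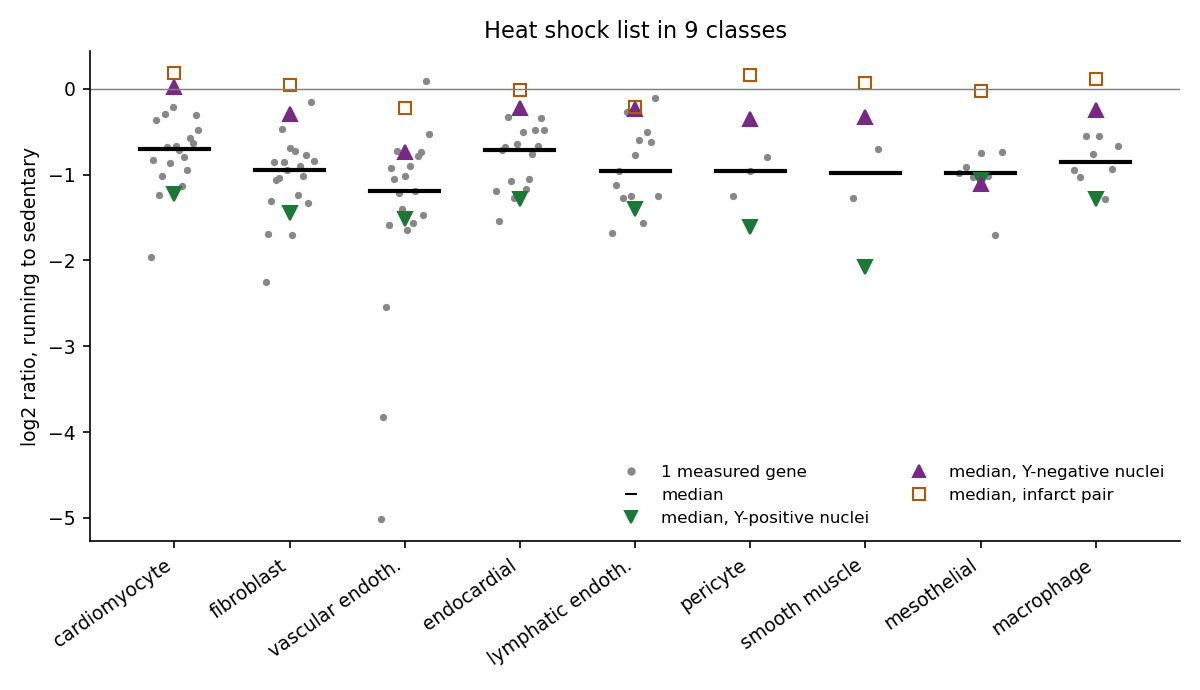
Log2 ratio, running to sedentary, of the heat shock list in 9 classes, with points for its measured members and for the medians in all, Y-positive and Y-negative nuclei and in the infarct pair. The medians over all nuclei lie between -1.19 and -0.70, and those of the infarct pair lie near 0.

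The promoters of this list are shown because so many of its members were lower together. In the 250 bases before each gene's start in RefSeq (GRCm38.p6, an older build than the GRCm39 of the counts), the letters GAANNTTC, the core of a heat shock element on either strand, were found in 7 of the 16 members that have a window. These were Hspa1a, Hspa1b, Dnaja1, Hspd1, Hspe1, Hspb1 and Fkbp4. Over all 32851 such windows 6.69% held the letters. That is a share of windows, while a member was counted if any of its windows matched. Some members have several, such as Dnaja1 with 3 and Hspd1 with 2, so the 2 measures are not alike. A longer form of 3 repeats was in 0.466% of windows and in 2 members, Hspd1 and Hspe1. A match is only a run of letters and not a shown binding site. The windows below run 5′ to 3′ on the gene's strand up to its start, with the matched letters in capitals. They are chr17:34972157-34972406 on the minus strand for Hspa1a, chr5:135887669-135887918 on the plus strand for Hspb1 and chr1:55087898-55088147 on the plus strand for Hspe1, which encodes the small subunit of the mitochondrial chaperonin.
Hspa1a: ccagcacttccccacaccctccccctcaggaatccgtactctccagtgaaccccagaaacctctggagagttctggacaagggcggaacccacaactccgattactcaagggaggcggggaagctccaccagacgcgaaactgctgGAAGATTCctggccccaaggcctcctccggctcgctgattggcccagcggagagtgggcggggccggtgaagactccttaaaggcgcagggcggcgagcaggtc
Hspb1: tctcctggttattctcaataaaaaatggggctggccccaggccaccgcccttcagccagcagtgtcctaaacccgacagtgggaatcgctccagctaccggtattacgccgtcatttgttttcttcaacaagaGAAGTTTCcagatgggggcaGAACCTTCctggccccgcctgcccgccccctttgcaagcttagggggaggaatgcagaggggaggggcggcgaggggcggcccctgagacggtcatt
Hspe1: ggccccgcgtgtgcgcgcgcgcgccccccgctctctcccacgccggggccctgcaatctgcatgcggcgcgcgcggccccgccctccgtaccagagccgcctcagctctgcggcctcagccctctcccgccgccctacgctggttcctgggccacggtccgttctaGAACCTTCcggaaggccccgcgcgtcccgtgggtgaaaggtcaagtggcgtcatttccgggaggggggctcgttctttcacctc

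P4ha1 was lower in all 9 classes. It stood at 548 CPM in sedentary and 185 CPM in running vascular endothelial-like nuclei, at 502 and 254 in fibroblast-like nuclei and at 661 and 339 in pericyte-like nuclei. The infarct libraries were at 173 and 152 CPM in vascular endothelial-like and at 236 and 229 CPM in fibroblast-like nuclei, so that here too the sedentary library was the one that stood apart. Among Y-negative nuclei P4ha1 was not lower in cardiomyocyte-like, lymphatic endothelial-like, pericyte-like and smooth muscle-like nuclei, with log2 ratios of 0.32, 0.086, 0.082 and 0.91. P4ha1 is a target of hypoxia-inducible factors and stands on the hypoxia list of 20 genes. In fibroblast-like nuclei P4ha1 was the only one of 17 measured members beyond 1.5-fold. In cardiomyocyte-like nuclei 4 of 15 were lower, beside 2.11% of all measured genes there. These were P4ha1, Egln3, Bnip3 and Pfkfb3. Egln3, an oxygen-sensing hydroxylase, was at 70.9 and 19.6 CPM there, and by Y-linked UMIs at 129 and 13.2 among Y-positive nuclei but 16.3 and 29.8 among Y-negative ones.

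Clock genes differed in opposite directions by phase. In the list of the activator phase (5 genes), 6 of 19 measured pairs of gene and class were lower in the running library and 0 higher. Of all measured genes, 1.47% in fibroblast-like to 4.82% in mesothelial-like nuclei were lower. In the list of the output phase (12 genes), 22 of 61 pairs were higher and 0 lower, against backgrounds of 2.35% higher in fibroblast-like to 4.09% higher in lymphatic endothelial-like nuclei. The output list's median log2 ratio was 0.28 to 1.24 by class. All 6 lower pairs belong to Arntl (ENSMUSG00000055116) and Npas2.

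Arntl, the activator at the head of the loop, stood at 32.7 CPM in sedentary and 10.9 CPM in running cardiomyocyte-like nuclei. Fibroblast-like nuclei had 47.1 and 11.7 CPM, vascular endothelial-like ones 62.4 and 11.0 CPM, and endocardial-like ones 120 and 25.9 CPM. The running library was the lower one in all 4 of these classes, most of all in vascular endothelial-like nuclei, where the log2 ratio was -2.51. Among the outputs, Nr1d1, which encodes the repressor REV-ERB alpha, was at 38.0 and 104 CPM in fibroblast-like nuclei. Dbp, a transcription factor under direct clock control, was at 21.4 and 58.4 CPM in cardiomyocyte-like nuclei and at 20.4 and 68.6 in vascular endothelial-like nuclei. Both had the higher level in the running library. Nr1d2, the paralogue of Nr1d1, was deep enough to be read in all 9 classes and was higher in the running library in each, from 187 and 220 CPM in macrophage-like to 161 and 381 CPM in smooth muscle-like nuclei. In 6 of those 9 it passed 1.5-fold, the 3 others being cardiomyocyte-like, fibroblast-like and macrophage-like nuclei.

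After infarct the same genes differed the other way. Arntl in fibroblast-like nuclei was at 44.0 CPM in the sedentary infarct and 135 CPM in the running infarct library, and the output list's median log2 ratio was -1.09 to -0.43 by class. Without infarct the output list's medians were 0.51 to 2.11 among Y-positive nuclei and 0.09 to 0.42 among Y-negative ones. The labels give no hour at which hearts were taken, and running and the hour of collection cannot be told apart here.

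The 250 bases before their starts were searched for the E-box CACGTG, the letters read by the activators. It was found in 4 of the 10 output genes that have a window, Per1, Tef, Ciart and Bhlhe41. Of the 5 genes on the list of the activator phase, 1 held it, Cry1. The E-box was in 6.02% of all windows, again a share of windows and not of genes. The D-box TTATGTAA, read by Dbp and its relatives, was in 0.819% of windows and in Per3. Ciart, a repressor of the activators, had 3 E-boxes at chr3:95882229-95882478 (minus strand), and its level in cardiomyocyte-like nuclei was 9.31 CPM in the sedentary and 26.6 CPM in the running library. Per3, a period gene, had 2 D-boxes at chr4:151044666-151044915 (minus strand), and its level in endocardial-like nuclei was 73.6 and 130 CPM. Both windows are from GRCm38.p6 and are given because these genes hold more matches than any other on the list.
Ciart: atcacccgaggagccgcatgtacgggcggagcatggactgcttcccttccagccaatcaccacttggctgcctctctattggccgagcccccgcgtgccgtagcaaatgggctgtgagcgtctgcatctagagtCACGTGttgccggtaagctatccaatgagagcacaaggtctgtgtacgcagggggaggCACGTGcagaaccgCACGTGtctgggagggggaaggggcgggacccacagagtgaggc
Per3: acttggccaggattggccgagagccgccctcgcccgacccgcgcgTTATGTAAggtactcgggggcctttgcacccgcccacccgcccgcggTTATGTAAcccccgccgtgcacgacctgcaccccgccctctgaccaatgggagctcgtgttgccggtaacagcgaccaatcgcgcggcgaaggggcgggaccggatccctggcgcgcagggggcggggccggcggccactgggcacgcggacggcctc

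Immediate early genes, which are transcribed within minutes of a stimulus without new protein synthesis, were in part higher. Of 71 measured pairs of gene and class, 19 were higher and 5 lower in the running library. All 19 higher pairs fell in 4 classes, where 2.35% (fibroblast-like) to 3.81% (cardiomyocyte-like) of all measured genes were higher, with 6 of 16 measured members in cardiomyocyte-like, 5 of 18 in fibroblast-like, 3 of 14 in vascular endothelial-like and 5 of 11 in endocardial-like nuclei. In lymphatic endothelial-like nuclei 0 of 6 were higher and 2, Jun and Jund, were lower, beside 2.57% of all measured genes lower there. Fos, at 5.69 and 12.5 CPM, was beyond 1.5-fold in fibroblast-like nuclei only. Egr1, a zinc finger factor, was at 29.6 and 110 CPM in endocardial-like and at 33.7 and 79.4 CPM in fibroblast-like nuclei.

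Nr4a1 (ENSMUSG00000023034), an orphan nuclear receptor induced by adrenergic signals and by fasting among other stimuli, showed the widest gap of the list. In cardiomyocyte-like nuclei it stood at 41.1 CPM in the sedentary and 327 CPM in the running library, from 265 and 1737 UMIs, 7.96-fold higher [6.99 to 9.10]. In endocardial-like nuclei it stood at 29.6 and 132 CPM. The running level came mostly from Y-positive cardiomyocyte-like nuclei, at 488 CPM against 97.5 CPM in Y-negative ones, while the sedentary levels were 26.2 and 52.3 CPM. After infarct the order was the other way, at 62.2 CPM in the sedentary and 32.4 CPM in the running library.

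Haemoglobin transcripts, which red cell precursors make, were higher in each class where they were measured, 5 classes for Hba-a1 and 7 for Hbb-bs. Some of these directions turned under other settings. Hbb-bs in cardiomyocyte-like nuclei had a log2 ratio of -0.15 with nuclei weighted equally. Among barcodes of at most 5% mitochondrial UMIs Hba-a1 was at -0.20 in endocardial-like nuclei and Hbb-bs at -1.38 in macrophage-like nuclei. Hba-a1, an alpha globin whose near-identical copy is Hba-a2, stood at 58.1 CPM in sedentary and 324 CPM in running vascular endothelial-like nuclei, against 31.2 and 80.9 for fibroblast-like and 20.3 and 53.7 for cardiomyocyte-like nuclei. Hbb-bs, a beta globin, was at 104 and 498 CPM in vascular endothelial-like nuclei. In the erythroid-like nuclei, 2 sedentary and 4 running, Hba-a1 was at 141512 and 121389 CPM, far above the levels in any other class. Grik1, Xlr5a, Lrp1b and Cntnap2 had a related distribution. Their CPM were highest in an unnamed cluster of low depth, with Grik1 at 1080 CPM in the sedentary and 2088 CPM in the running library, and that cluster was 10.5% of sedentary and 12.7% of running nuclei. Whether free RNA carried these transcripts into other nuclei was not tested.

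Interferon-induced genes were higher in some classes. Of 78 measured pairs of gene and class, 12 were higher and 0 lower in the running library. They were 4 of 9 measured members in cardiomyocyte-like, 3 of 15 in vascular endothelial-like, 3 of 7 in macrophage-like and 1 each in fibroblast-like (of 16) and endocardial-like nuclei (of 12). Of all measured genes, 3.81% were higher in cardiomyocyte-like, 3.45% in vascular endothelial-like, 3.97% in macrophage-like, 2.35% in fibroblast-like and 2.99% in endocardial-like nuclei. In some classes the list's median log2 ratio turned sign between Y-positive and Y-negative nuclei. Endocardial-like nuclei had 0.63 and -0.38, vascular endothelial-like ones 0.75 and -0.09, and fibroblast-like ones 0.53 and -0.12. Both medians were above 0 for cardiomyocyte-like (0.54 and 0.14), macrophage-like (0.46 and 0.57), mesothelial-like (0.16 and 0.03) and lymphatic endothelial-like nuclei (0.09 and 0.10). Stat2, a subunit of the interferon-activated transcription factor, was at 16.1 and 34.3 CPM in cardiomyocyte-like and at 85.2 and 199 CPM in macrophage-like nuclei. Iigp1 (ENSMUSG00000054072), an interferon-induced GTPase, was among the 3 most separated genes of 3 classes. It was at 100 and 381 CPM in endocardial-like, 75.7 and 237 CPM in lymphatic endothelial-like and 66.9 and 180 CPM in macrophage-like nuclei, each time higher in the running library. In endocardial-like nuclei the gap lay almost wholly among Y-positive nuclei, at 46.6 and 570 CPM, while Y-negative nuclei stood at 144 and 173 CPM.

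Cardiomyocyte-like nuclei had 9184 measured genes, of which 3.81% were higher and 2.11% lower in the running library. The contractile and metabolic programmes read from the lists were nearly level. None of 33 measured respiratory chain genes, 22 of glucose use, 17 regulators of the PPAR, PGC-1 and ERR group, 16 of calcium cycling or 17 ion channels differed by 1.5-fold, and the medians lay between -0.07 and 0.03. Ppargc1a, the coactivator of mitochondrial biogenesis, was at 1292 CPM in the sedentary and 1687 CPM in the running library. Myh6 and Myh7, the fast and slow cardiac myosins, were at 9965 and 11285 CPM and at 1325 and 1530 CPM. Of 21 growth signalling genes 1 was higher and 1 lower, the latter being Akt2, a kinase downstream of the insulin receptor, at 56.3 and 37.3 CPM. Cebpb, a factor reported to be repressed by exercise, was at 43.5 and 31.9 CPM, within 1.5-fold.

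Of 16 measured stress and mechanical genes of the cardiomyocyte, 1 was higher and 3 lower, beside 3.81% higher and 2.11% lower of all measured genes there. The list's median log2 ratio was -0.13, at -0.41 among Y-positive and 0.21 among Y-negative nuclei. Ankrd1, a stretch-responsive titin partner, was at 212 CPM in the sedentary and 488 CPM in the running library, and higher in both Y-positive (184 and 461 CPM) and Y-negative nuclei (233 and 545 CPM). Its relative Ankrd23 was lower, at 122 and 45.1 CPM (log2 ratio -2.41 among Y-positive but -0.11 among Y-negative nuclei), as were Flnc, the Z-disc filamin, at 162 and 82.4 CPM (log2 ratio -2.22 among Y-positive but 0.50 among Y-negative nuclei), and Rcan1, a calcineurin inhibitor, at 82.4 and 54.7 CPM. The natriuretic peptide gene Nppa, a marker of haemodynamic load, was at 14.7 and 16.0 CPM. Tcap, a Z-disc cap protein, was the single member of the sarcomere list beyond 1.5-fold, at 218 and 344 CPM.

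The most separated genes of this class beside Nr4a1 and Dbp were Mylk4 on the higher side and Slc41a3, Ankrd23 and Arntl on the lower side. Mylk4, a myosin light chain kinase of the heart, was at 305 and 760 CPM, and its log2 ratio was 1.80 among nuclei with Y-linked UMIs and 0.75 among Y-negative nuclei. Slc41a3, a magnesium transporter, was at 57.3 and 13.9 CPM. After infarct Slc41a3 was at 15.8 CPM in the sedentary and 29.5 CPM in the running library, the opposite order.

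Of 25 fatty acid genes 0 were higher and 2 lower over all nuclei, with a median log2 ratio of -0.03. Split by Y-linked UMIs the list's median was 0.38 among Y-positive and -0.54 among Y-negative nuclei. Slc27a1, one of these, encodes a fatty acid transporter and was at 482 and 301 CPM. Pdk4 (ENSMUSG00000019577) encodes a kinase that inhibits the oxidation of pyruvate in favour of fat. It was at 281 CPM in the sedentary and 411 CPM in the running library, a difference that hides opposite ones. In Y-positive nuclei it was at 47.1 and 643 CPM, 13.6-fold higher [11.5 to 16.4] in the running library. In Y-negative nuclei it was at 474 and 75.9 CPM, 6.25-fold lower [5.25 to 7.49]. Both pools thus held nuclei with high and low Pdk4, with the sides exchanged. Pdk4 is known to be induced by fasting and by the clock, and neither feeding state nor hour is in the labels.

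**Figure D3:**
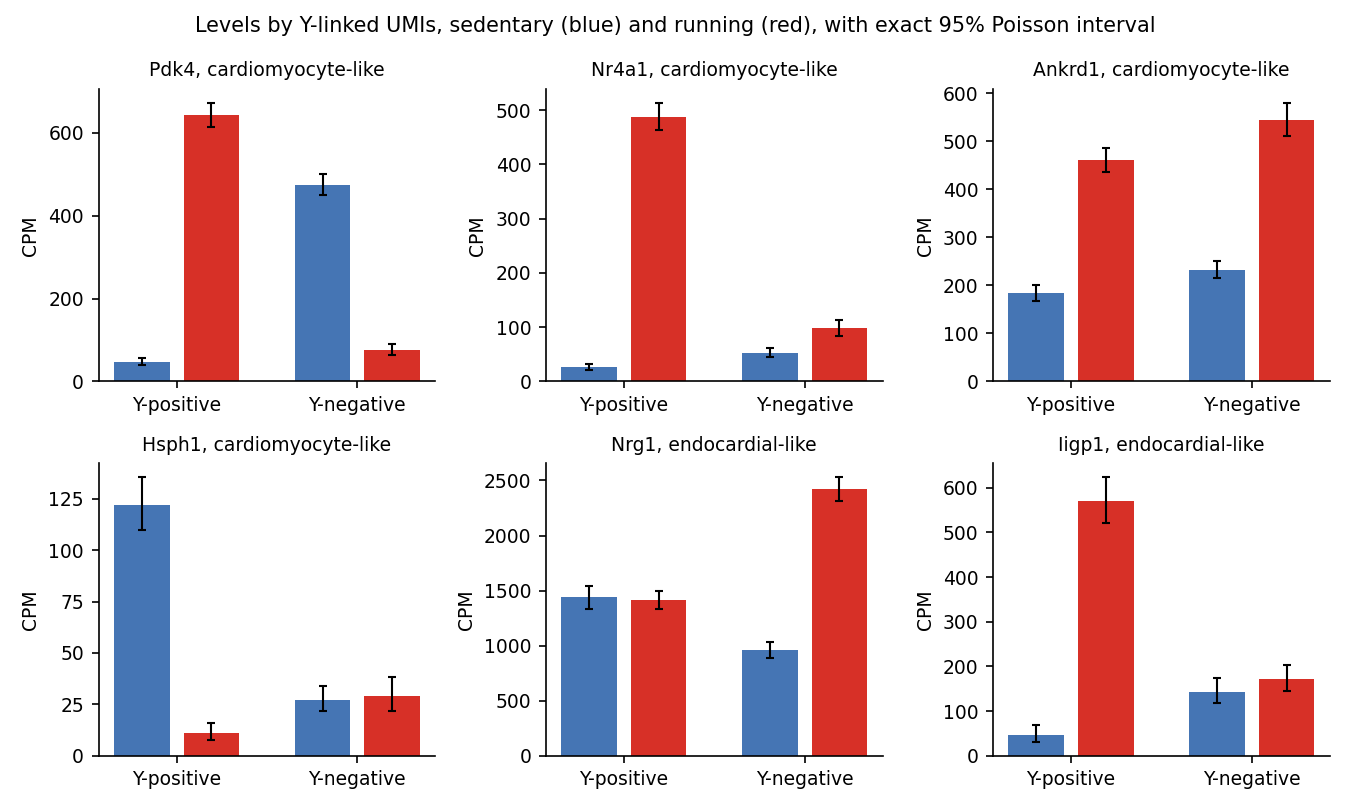
Levels in CPM of genes named in the text in Y-positive and Y-negative nuclei, sedentary in blue and running in red, with exact 95% Poisson intervals. Pdk4 in cardiomyocyte-like nuclei is high in running Y-positive and in sedentary Y-negative nuclei, while Nr4a1 and Iigp1 are high in running Y-positive nuclei.

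Fibroblast-like nuclei, with 10459 measured genes, had 2.35% higher and 1.47% lower, the smallest shares of the 9 classes. Matrix genes were close to level, with 0 of 27 higher and 2 lower. These were Eln, which encodes elastin, at 191 CPM in the sedentary and 112 CPM in the running library, and Col5a3 at 93.9 and 56.2 CPM. Col1a1 and Col3a1, the main fibrillar collagens, were at 127 and 132 CPM and at 733 and 630 CPM. Postn, a marker of activated fibroblasts, was at 145 and 146 CPM, beside 1216 and 975 CPM after infarct. Of 8 measured myofibroblast genes 1 was higher, Comp, at 12.9 and 25.2 CPM. Of 18 homeostatic fibroblast genes 1 was higher and 1 lower. Inmt, a methyltransferase of resting fibroblasts, was at 48.0 and 95.8 CPM, and G0s2, an inhibitor of lipolysis, at 94.7 and 54.0 CPM. Of secreted factors and signalling genes, Pdgfd (76.5 and 119 CPM) and Thbs1 (15.1 and 29.6 CPM) were higher.

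Vascular endothelial-like nuclei, with 6962 measured genes, had 3.45% higher and 2.14% lower. Angiogenesis and arterial lists held no member beyond 1.5-fold among 16 and 11 measured, and Kdr, the main receptor for vascular endothelial growth factor, was at 234 CPM in the sedentary and 226 CPM in the running library. In the flow response list 2 of 18 were lower. Edn1, which encodes the constrictor endothelin-1, was at 108 and 52.4 CPM, and Thbd, the anticoagulant thrombomodulin, at 131 and 75.7 CPM. Among barcodes of at most 5% mitochondrial UMIs Edn1 had the opposite sign, a log2 ratio of 0.37. Klf2 and Nos3, a shear-responsive factor and the endothelial nitric oxide synthase, were at 401 and 283 CPM and at 343 and 306 CPM. Thbd was also lower in lymphatic endothelial-like nuclei, at 84.0 and 51.2 CPM.

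Antigen presentation genes were higher in part in the same class, with 4 of 9 higher and 0 lower and a median log2 ratio of 0.58. These were H2-Aa, Cd74, Tap1 and Nlrc5, which serve both class I and class II presentation. Cd74, the invariant chain of class II, was at 36.0 CPM in the sedentary and 69.5 CPM in the running library, and Tap1, a peptide transporter, at 26.9 and 54.3 CPM. Their log2 ratios were 1.44 to 2.55 among Y-positive nuclei and 0.28 to 0.42 among Y-negative ones. The list's median after infarct was -0.41. The 12 lymphocyte markers, whose cells also express H2-Aa and Cd74, summed to 84.5 CPM in sedentary and 166 CPM in running vascular endothelial-like nuclei, and their part in these values was not tested. In macrophage-like nuclei 2 of 9 members were higher, H2-Aa and Nlrc5, beside 3.97% of all measured genes there. The list's median log2 ratio there was 0.06, at 0.15 among Y-positive and -0.04 among Y-negative nuclei.

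Endocardial-like nuclei, with 6411 measured genes, had 2.99% higher and 2.46% lower. The class held 2 clusters, and the smaller, led by Hecw1 and Kcnc2 with 89 sedentary and 84 running nuclei, passed the naming limit only narrowly. The defining genes, Npr3 and Nrg1, were present in both libraries, Npr3 at 1176 and 1364 CPM. Nrg1, the neuregulin that the endocardium sends to cardiomyocytes, was at 1224 CPM in the sedentary and 1794 CPM in the running library, 1.47-fold higher [1.38 to 1.55]. That difference lay among Y-negative nuclei, at 960 and 2421 CPM, while Y-positive nuclei stood at 1438 and 1416 CPM. Among barcodes of at most 5% mitochondrial UMIs the log2 ratio of Nrg1 was -0.082 in place of 0.55. Of 16 endocardial signals Tgfb2 was higher, at 37.1 and 65.7 CPM, and Wnt9b, a ligand of the valve and cushion endocardium, lower, at 107 and 65.7 CPM. Wnt9b is among the leading genes of the smaller cluster, which made up 21.4% of the class in the sedentary and 16.1% in the running library. Nrg1 leads the larger cluster, at 78.6% and 83.9% of the class. Levels of both genes over the class thus also reflect its mix of clusters. Of 22 ribosomal protein genes 3 were lower here, Rplp0, Rplp1 and Rps3, with a list median of -0.34. No member was beyond 1.5-fold in cardiomyocyte-like, fibroblast-like, vascular or lymphatic endothelial-like nuclei. In mesothelial-like and macrophage-like nuclei 1 of 9 measured members was lower in each, with list medians of -0.12 and -0.16. The most separated genes were Nr4a1, Iigp1 and Hba-a1 on the higher side and Arntl, Hsp90aa1 and Cacybp on the lower side. Cacybp, a partner of the ubiquitin ligase machinery, was at 57.1 and 20.2 CPM.

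Lymphatic endothelial-like nuclei, with 4740 measured genes, had 4.09% higher and 2.57% lower. Lymphatic identity was level: 0 of 16 identity and guidance genes differed by 1.5-fold, Prox1, the master regulator, stood at 892 and 941 CPM, and Reln at 1788 and 2117 CPM. Stab2 (ENSMUSG00000035459), a scavenger receptor for hyaluronan, was among the 3 higher genes named by the rule, at 44.9 CPM in the sedentary and 133 CPM in the running library. It was higher in both Y-positive (26.7 and 101 CPM) and Y-negative nuclei (61.1 and 181 CPM), a match that the rule required of every gene it named. After infarct Stab2 was at 83.4 and 335 CPM, again higher with running. Rfx2, a factor of ciliary genes, was lower, at 130 and 36.7 CPM, by the same requirement in both sets of nuclei. After infarct Rfx2 had the opposite order, at 29.8 and 62.4 CPM. Stip1 and Dnaja1 of the heat shock group were the other lower genes named by the rule.

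Pericyte-like nuclei, with 1180 measured genes, had 3.22% higher and 4.24% lower, and only genes of high level could be read. Their defining genes differed in both directions, none by 1.5-fold. Pdgfrb, the receptor that anchors pericytes to endothelium, was at 1575 CPM in the sedentary and 1928 CPM in the running library. Kcnj8, a subunit of the ATP-sensitive potassium channel, was at 643 and 466 CPM, and Rgs5, a regulator of G protein signalling, at 1651 and 1216 CPM, all within 1.5-fold. Ano4, a membrane scramblase, was at 119 and 295 CPM, and Mdga2, an adhesion protein, at 1265 and 2308 CPM. On the lower side stood Hsp90ab1 (462 and 194 CPM), Slc24a3, a sodium and calcium exchanger (957 and 522 CPM), and Errfi1, an inhibitor of growth factor receptors (661 and 358 CPM). Of 14 vasoactive genes 2 were lower, the phosphodiesterases Pde3a and Pde5a, with Pde5a at 278 and 138 CPM. Ano4 after infarct was at 99.1 and 99.0 CPM, with no gap, and its log2 ratio without infarct of 1.31 became 0.43 when doublets were kept and 0.41 among barcodes of at most 5% mitochondrial UMIs.

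Smooth muscle-like nuclei were few, with 629 measured genes, 3.82% higher and 4.45% lower. Myh11 and Acta2, the contractile myosin and actin, were at 4195 and 4103 CPM and at 2156 and 2517 CPM. Of 16 contractile genes 2 were higher, Myocd, the coactivator of the contractile programme (632 and 973 CPM), and Itga8 (533 and 865 CPM). Beside Nr1d2, the higher genes named by the rule were Map1b, a microtubule protein (254 and 535 CPM), and Csrp2, a LIM protein of smooth muscle (514 and 947 CPM). The lower ones were Hsp90ab1, Klf12 and Cmss1. Cardiomyocyte transcripts also differed in this class, with 3 of 7 measured members lower and a summed level of 8712 CPM in the sedentary and 5071 CPM in the running library. Ttn alone was at 2218 and 680 CPM, and its log2 ratio was -2.69 among nuclei with Y-linked UMIs and 0.32 among Y-negative nuclei. Pde4d, a phosphodiesterase that cardiomyocytes also express, was at 1020 and 211 CPM, but its log2 ratio was 0.064 when doublets were kept, so its lower level here goes with which nuclei were left in the class.

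**Figure D4:**
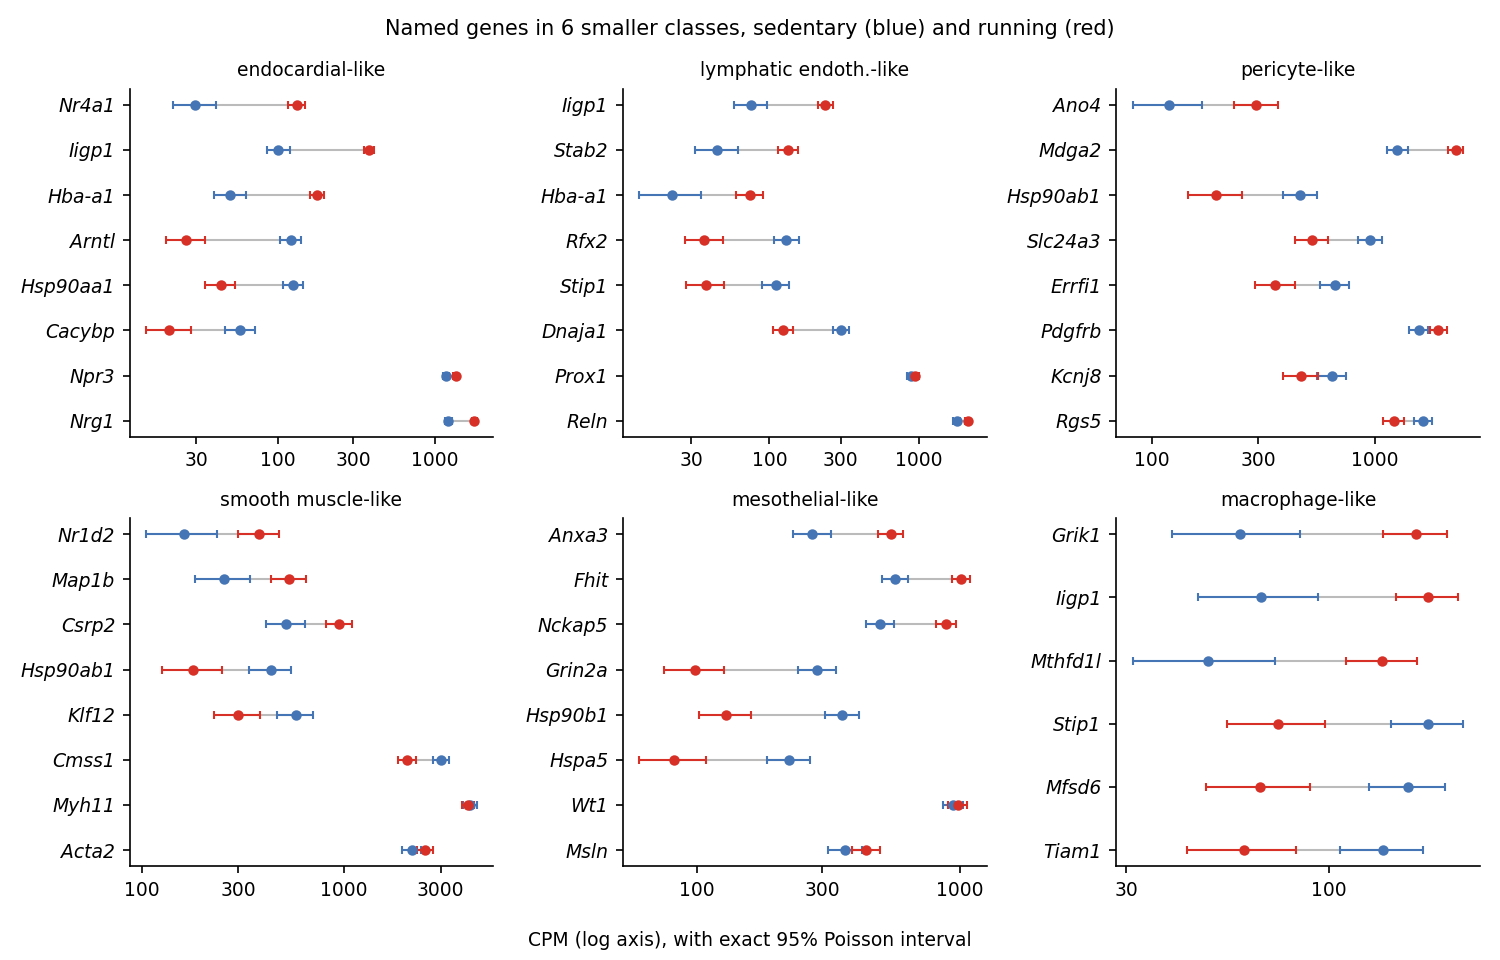
CPM (log axis) of the named genes in 6 smaller classes, sedentary in blue and running in red, with exact 95% Poisson intervals. Ano4, Map1b, Stab2 and Anxa3 lie to the right in the running library, and Rfx2, Errfi1, Grin2a and Hspa5 to the left.

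Mesothelial-like nuclei, with 2653 measured genes, had 4.0% higher and 4.82% lower. Wt1 and Msln, which mark the epicardial sheet, were at 944 and 983 CPM and at 367 and 440 CPM. Anxa3, an annexin, was at 276 CPM in the sedentary and 548 CPM in the running library, Fhit, a nucleotide hydrolase, at 569 and 1010 CPM, and Nckap5 at 498 and 889 CPM. Lrp1b, one of the genes higher in every class, was at 91.9 and 420 CPM, but 45.4% of its running UMIs lay in 1 nucleus. The lower genes were Grin2a, a subunit of the NMDA receptor (287 and 98.6 CPM), and 2 chaperones of the endoplasmic reticulum, Hsp90b1 (358 and 129 CPM) and Hspa5 (225 and 81.9 CPM). Of 14 epicardial and retinoic acid genes only Krt19, a keratin, was beyond 1.5-fold, at 258 and 147 CPM. Of 7 secreted factors Angpt1 and Wnt5a were higher and Vegfc and Bmp6 lower, with Angpt1 at 64.5 and 114 CPM and Bmp6 at 188 and 110 CPM. The share of Y-positive nuclei in this class differed between the libraries, at 55.7% in the sedentary and 35.7% in the running one.

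Macrophage-like nuclei, with 2973 measured genes, had 3.97% higher and 2.86% lower. Genes of resident macrophages were close to level: of 11 measured only Folr2, a folate receptor, was lower, at 124 CPM in the sedentary and 71.0 CPM in the running library. Mrc1, Lyve1 and Timd4, receptors typical of the resident population, were at 2344 and 2155, 235 and 225, and 160 and 217 CPM. None of the 11 monocyte genes reached 100 UMIs. Apoe, the lipoprotein secreted by lipid-handling macrophages, was at 884 and 586 CPM, a gap that was absent among barcodes of at most 5% mitochondrial UMIs, where the log2 ratio of Apoe was 0.033. The higher genes named by the rule were Grik1, Iigp1 and Mthfd1l, a mitochondrial enzyme of one-carbon metabolism (48.7 and 137 CPM). The lower ones were Stip1, Mfsd6 (160 and 66.4 CPM) and Tiam1, a Rac activator (138 and 60.4 CPM).

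The infarct pair gave a second reading of the contrast in other animals. The genes chosen as most separated made 54 pairs of gene and class in the 9 classes. Some genes, such as Arntl and Hba-a1, were chosen in several classes and so count repeatedly. Of the 54 pairs, 26 differed in the same direction after infarct, 5 of them by at least 1.5-fold. In the opposite direction, 15 differed by at least 1.5-fold. Over all 45188 measured pairs of gene and class, 51.8% had the same direction in both readings. In cardiomyocyte-like nuclei 0 of the 6 chosen genes kept their direction, and in lymphatic endothelial-like nuclei 5 of 6 did, Stab2 among them.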

How the data were processed

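Single-nucleus RNA was measured with a 10x Genomics 3' kit in 4 pooled libraries. The deposited matrices hold raw UMI counts per gene and barcode for barcodes the authors had called, and per the submitters' processing notes Cell Ranger 7.1 and GRCm39 were used. The remaining steps of the authors' processing are not given in the sources used here. No cell annotation was used, so classes were rebuilt.

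A barcode stayed with 300 or more genes and with no more than 20% of UMIs from mitochondrially encoded genes. Scrublet's automatic limit called 0 doublets, so the top-scoring 0.8% per 1000 barcodes were dropped, 228 sedentary and 301 running. Scanpy 1.11.5 (scaling to 10000, log, 3000 variable genes, 40 components, 15 neighbours, Leiden resolution 1) clustered all 4 libraries without integration. Clusters were named by the highest mean log2 marker excess, at least 1, with 3 or more markers each seen in 10% of nuclei. A cluster stayed unnamed where another type led its 10 top genes, where it was shallow without own markers, or where its median doublet score reached 0.1. That last limit, and the split of a cluster that joined pericytes and smooth muscle, were set after the data were seen.

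UMIs were summed per library and class. Intervals at 95% were exact Poisson for CPM, conditional binomial for ratios of CPM and Clopper-Pearson for shares, with ratios of shares on the log scale. They cover counting error only. Genes were named by rule: per class, the 3 higher and 3 lower genes whose ratio interval kept farthest away from 1. These had to share a direction between Y-positive and Y-negative nuclei, hold at most 25% of their UMIs in 1 nucleus, and reach no more than 5 times their CPM in another class of at least 100 nuclei. From each list, up to 3 members wholly beyond 1.5-fold were taken, otherwise the 2 with most UMIs, and a fixed set of class markers and well-known genes was added. List members named where a count was 5 or fewer, and other single genes given as context, were chosen after their values were seen. A few genes that these rules pick are not reported here. Lists, members and the comparison itself were chosen with earlier results of these data known. The calculations were tested on simulated counts. The Y-linked genes were Ddx3y, Uty, Kdm5d and Eif2s3y. Alternatives covered filters, doublets, resolution, libraries clustered alone or in pairs, denominators, TMM scaling (edgeR 4.0.16), weighting of nuclei, count limits, thinning to 1000 UMIs, naming and the Y split.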

Additional observations from a re-analysis of the deposited data

Results flagged for a closer look

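Pdk4 was the named gene whose counting intervals lay wholly beyond 1.5-fold in opposite directions in nuclei with and without Y-linked UMIs. In cardiomyocyte-like nuclei it had a log2 ratio, running to sedentary, of 3.77 among Y-positive nuclei and -2.64 among Y-negative ones. The difference between these ratios was not tested, since each comes from 1 pooled library a side. Egln3 in the same nuclei also had opposite signs, at -3.28 and 0.87, but its second interval reached within 1.5-fold.

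The other results are genes whose counting intervals without infarct and after infarct lay wholly beyond 1.5-fold on opposite sides, with the value without infarct given first. None of these differences was tested. Most are clock genes. Arntl had -1.58 and 1.44 (cardiomyocyte-like), -2.01 and 1.61 (fibroblast-like) and -2.22 and 1.46 (endocardial-like). Npas2 was at -1.42 and 1.52 in fibroblast-like nuclei. Of the clock outputs, Dbp had 1.45 and -1.37 (cardiomyocyte-like), 0.90 and -1.41 (fibroblast-like) and 1.75 and -1.54 (vascular endothelial-like). Nr1d1 was at 1.45 and -1.37 in fibroblast-like and 1.90 and -1.30 in vascular endothelial-like nuclei, Ciart at 1.51 and -1.63 in cardiomyocyte-like nuclei, and Tef at 0.92 and -0.97 in vascular endothelial-like nuclei. Beside the clock, Ankrd23 in cardiomyocyte-like nuclei was at -1.44 and 1.21, Eln in fibroblast-like nuclei at -0.77 and 0.84, and Inmt in fibroblast-like nuclei at 1.00 and -1.42.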

How the results depend on the processing

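No paired analysis was possible because each group has 1 library. As given in the report, there were 1508 gene and class pairs at least 1.5-fold higher in running and 1068 gene and class pairs at least 1.5-fold lower in running. With at least 20 UMIs these became 8573 and 6272, with at least 300 UMIs 340 and 280, and the clock activator median in endocardial-like nuclei 0.012, since fewer or more genes were measured. Keeping only barcodes of at most 5% mitochondrial UMIs, which removes most running nuclei, gave share ratios of 0.704 for fibroblast-like, 2.23 for vascular endothelial-like, 1.56 for endocardial-like, 1.51 for lymphatic, 1.52 for pericyte-like, 2.29 for smooth muscle-like and 0.626 for mesothelial-like nuclei, and 960 higher pairs. Signs then turned for Hba-a1 in endocardial-like (-0.20) and macrophage-like nuclei (-0.33), Hbb-bs in smooth muscle-like (-0.64) and macrophage-like nuclei (-1.38), Hspb1 (0.37) and Hlf (-0.27) in lymphatic, Stip1 in mesothelial-like (0.56), Edn1 in vascular endothelial-like (0.37), Apoe in macrophage-like (0.033) and Ryr2 in smooth muscle-like nuclei (0.22). Each library clustered alone gave shares of 1.26 for vascular endothelial-like, 1.39 for endocardial-like and 1.04 for lymphatic nuclei and -0.37 for Hlf in lymphatic nuclei. With doublets kept Pde4d in smooth muscle-like nuclei was at 0.064, with nuclei weighted equally Hbb-bs in cardiomyocyte-like nuclei at -0.15, and at resolution 2 the vascular endothelial-like share ratio at 0.820. The marker rule on thinned nuclei gave 1.07 for fibroblast-like, 1.37 for endocardial-like and 7.27 for Schwann-like shares. In Y-positive nuclei the share ratios were 0.853 for cardiomyocyte-like, 1.02 for fibroblast-like, 1.34 for endocardial-like, 0.556 for mesothelial-like, 1.48 for macrophage-like and 1.03 for Schwann-like nuclei, with Grik1 in smooth muscle-like nuclei (-0.66) reversed. In Y-negative nuclei the share ratios were 0.658 for cardiomyocyte-like, 1.37 for mesothelial-like and 3.68 for Schwann-like nuclei, with 671 higher pairs. There the heat shock median in cardiomyocyte-like (0.018) and the hypoxia median in smooth muscle-like nuclei (0.91) turned sign, as did these genes: Hsph1 in cardiomyocyte-like (0.11), endocardial-like (0.25), lymphatic (0.24) and smooth muscle-like (0.29), P4ha1 in cardiomyocyte-like (0.32), lymphatic (0.086), pericyte-like (0.082) and smooth muscle-like (0.91), Stip1 in cardiomyocyte-like (0.38) and pericyte-like (0.40), Hspb1 (0.47), Hspd1 (0.89) and Ttn (0.32) in smooth muscle-like, Flnc (0.50), Dnaja1 (0.19), Egln3 (0.87) and Nr4a2 (-0.37) in cardiomyocyte-like, Hsp90aa1 in lymphatic (0.066) and Hba-a1 in mesothelial-like nuclei (-0.35). The causes of these shifts were not tested. TMM scaling moved log2 ratios by -0.05 to 0.01. Leaving out the shallow parts of the pericyte-like and cardiomyocyte-like classes and the borderline endocardial-like cluster, 3 alternatives chosen after seeing the data, gave share ratios of 0.819, 0.706 and 1.18, each on the same side of even. At resolution 0.5, at 5% mitochondrial UMIs and with libraries alone, some small classes did not form and have no value.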
